A study of Mus musculus with 20 samples.

Results

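The 30 genes described here encode enzymes of cholesterol synthesis and of fatty acid synthesis, the sterol regulatory element binding protein (SREBP) system that controls both pathways, and 1 sterol carrier. They were chosen as a list of mouse gene symbols by a rule that uses no measured value, but with earlier results of these data known. All 30 were matched to an Ensembl identifier among the 30265 genes of both count tables and passed the filter on low counts in both experiments. By role the list holds 7 enzymes of the mevalonate pathway, 11 enzymes that lead from squalene formation to cholesterol, 5 genes of the SREBP system, 6 enzymes of fatty acid synthesis and Stard4. The libraries came from 2 experiments that changed the level of Klf5, a transcription factor of the Krüppel-like family that acts in the early embryo. In the first, mouse embryonic stem cells (ESCs, the pluripotent cells of the blastocyst grown in culture) of a C57BL/6J line overexpressed Klf5 (2 libraries) or green fluorescent protein (GFP, 2 libraries), and both groups grew with LIF on irradiated embryonic fibroblasts as feeders. In the second, single E4.5 embryos, the stage of the late blastocyst, were sequenced after Klf5 siRNA (6 embryos) or scramble siRNA (10 embryos), with 1 library for each embryo. The embryos came from mice that the labels name C57BL/5J, and both groups developed in KSOM medium with albumin. The promoter of the overexpression constructs and the number of ESC clones are not given in the sources used here. Whether the ESC libraries of a group came from separate cultures is not stated, so ESC p-values reflect the spread between these samples alone, and that spread may be technical.

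Cholesterol is built from acetyl-CoA through mevalonate and farnesyl diphosphate to squalene, which is closed to lanosterol and then trimmed to cholesterol. Fatty acids are built from the same acetyl-CoA, which ATP citrate lyase releases from citrate, and are then lengthened by elongases and desaturated by stearoyl-CoA desaturases. When sterols run low, the carrier protein SCAP takes SREBP from the endoplasmic reticulum to the Golgi, where it is cut to an active transcription factor, and the INSIG proteins hold SCAP back when sterols are plentiful. SREBP2 (Srebf2) acts mostly on the sterol genes and SREBP1 (Srebf1) mostly on the fatty acid genes, and the mouse embryo draws on both pathways for the membranes of its growing cell number.

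The ESC libraries held 26775363 to 37482631 counts and the embryo libraries 14701519 to 24939629. Levels are given as CPM, counts per 1000000 of the library total after scaling with the trimmed mean of M values (TMM). Klf5 transcript, the target, stood at 942 and 882 CPM in Klf5 ESCs, against 80.5 and 70.8 CPM in GFP ESCs. In embryos it ranged from 80.8 to 543 CPM after Klf5 siRNA, against 382 to 592 CPM after scramble siRNA (log2 fold change −1.07, edgeR adjusted p = 0.0273). The embryo labelled Klf5 siRNA 1, at 543 CPM, lay within the control range, and without it the log2 fold change was −1.56 (0.00130). The Klf5 call was lost without Klf5 siRNA embryo 2 (0.0619), 3 (0.0509), 4 (0.0583) or 5 (0.0672). Klf5 passed in 17 of the 26 embryo fits, which include these and other settings. Over the 26, by edgeR or DESeq2, its log2 fold change ran from −1.56 to −0.71 and its adjusted p reached 0.131. Mitochondrial transcripts took 2.45% to 10.3% of counts after Klf5 siRNA, against 4.34% to 18.5% after scramble siRNA, and scramble embryos 5 and 6 had the lowest mitochondrial and ribosomal protein shares of their group. Embryo fold changes also followed transcript length over 12306 genes (Spearman −0.32, across genes and so not over independent replicates) and over the 30 genes alone (−0.26). Of 10 trophectoderm markers 7 were lower after Klf5 siRNA, with a summed level of 225 to 2466 CPM against 2250 to 8569 CPM in scramble embryos. Of 9 primitive endoderm markers tested in embryos 2 were lower and 0 higher, with 8 of 9 fold changes negative (median −1.61) and sums of 241 to 498 CPM after Klf5 siRNA and 345 to 630 CPM after scramble siRNA. Of 10 markers of epiblast and ESCs 1 was lower and 0 higher, and 7 of 10 were negative (median −0.55). Their sums, 6155 to 16967 CPM in Klf5 siRNA embryos and 3739 to 11707 CPM in scramble embryos, went the other way and were mostly Dppa5a, with 5760 to 16498 and 3078 to 11418 CPM. In ESCs the epiblast and ESC markers summed to 7333 to 7882 CPM with Klf5 and 6507 to 6561 CPM with GFP, and the trophectoderm markers to 319 to 684 CPM with Klf5 and 913 to 1893 CPM with GFP, with none of either list called. No marker of these 3 lists was at 0 in all libraries of a group. In these libraries of whole embryos or cultures, fewer cells of a type and less RNA per cell cannot be told apart. Feeder fibroblast markers summed to 2378 to 2498 CPM in Klf5 ESCs and 2130 to 2214 CPM in GFP ESCs, and 1 of 11 tested was called higher in Klf5 ESCs. Primitive endoderm markers summed to 183 to 452 CPM in Klf5 ESCs and 68.3 to 71.6 CPM in GFP ESCs, with 4 of 10 called higher and none at 0. Over all genes tested 1.67% were called higher and 1.11% lower in Klf5 ESCs, and 12.0% and 7.74% in Klf5 siRNA embryos.

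The pathways were first compared between the control libraries, scramble embryos beside GFP ESCs, as levels with no test, because the embryo and ESC libraries also differ in their kit and starting material and these cannot be told apart. The SREBP system was far lower in embryos. Srebf1 averaged 5.15 ± 2.38 CPM in scramble embryos (SD, n = 10) and 310 ± 32.3 CPM in GFP ESCs (SD, n = 2), a 60.3-fold lower mean in embryos. Srebf2 averaged 12.1 ± 4.66 CPM in scramble embryos and 575 ± 12.0 CPM in GFP ESCs, 47.6-fold lower in embryos. Neither gene's ranges overlapped. Insig1, encoding the sterol-sensing anchor that is itself an SREBP target, was 11.6-fold lower in embryos, and Scap, encoding the SREBP escort, 11.0-fold lower. Insig2, encoding the other anchor, had 17.2 ± 5.75 CPM in scramble embryos, against 10.6 ± 0.324 CPM in GFP ESCs, and its ranges overlapped.

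Of all 30 genes, 16 were lower in embryos without overlap, 5 were higher without overlap and 9 overlapped. Over the 11652 genes tested in both experiments 60.2% did not overlap between these groups and 41.0% were lower in embryos without overlap. The median ratio of scramble embryos over GFP ESCs was 0.359 for the 30 genes and 0.678 for all genes. By role it was 0.0859 for the SREBP system, 0.179 for fatty acid synthesis, 0.370 for the mevalonate pathway and 0.629 for the steps from squalene to cholesterol. The 5 genes that stood higher in embryos were Ebp, Elovl6, Fdft1, Nsdhl and Stard4. The ESC level of Fdft1 is uncertain, with 3.18 and 17.8 CPM in the GFP libraries. Ebp, encoding the sterol isomerase that moves a double bond late in cholesterol synthesis, averaged 96.4 ± 36.3 CPM in scramble embryos and 11.9 ± 1.49 CPM in GFP ESCs, an 8.09-fold higher mean. Elovl6, encoding the elongase that turns palmitate into stearate, averaged 123 ± 24.2 CPM in scramble embryos and 20.8 ± 5.79 CPM in GFP ESCs, 5.91-fold higher. Fasn, encoding fatty acid synthase, went the other way, with 8.00 ± 5.73 CPM in scramble embryos and 52.3 ± 13.0 CPM in GFP ESCs.

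The order of the genes by level, per length, also differed between the materials. In scramble embryos the highest levels in CPM per kb of transcript were those of Fdps at 70.3 ± 41.8, Ebp at 55.3 ± 20.8, Pmvk at 32.2 ± 20.7, Msmo1 at 31.3 ± 10.1 and Elovl6 at 20.7 ± 4.07. In GFP ESCs they were those of Srebf2 at 113 ± 2.36, Acly at 100.03 ± 0.276, Insig1 at 98.0 ± 7.49, Mvd at 92.9 ± 2.36 and Scd2 at 78.4 ± 19.4. None of the genes was among the first 5 in both. Srebf1 stood 28th of 30 in embryos, at 1.20 ± 0.554 CPM per kb, and Fasn came last.

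**Figure D1:**
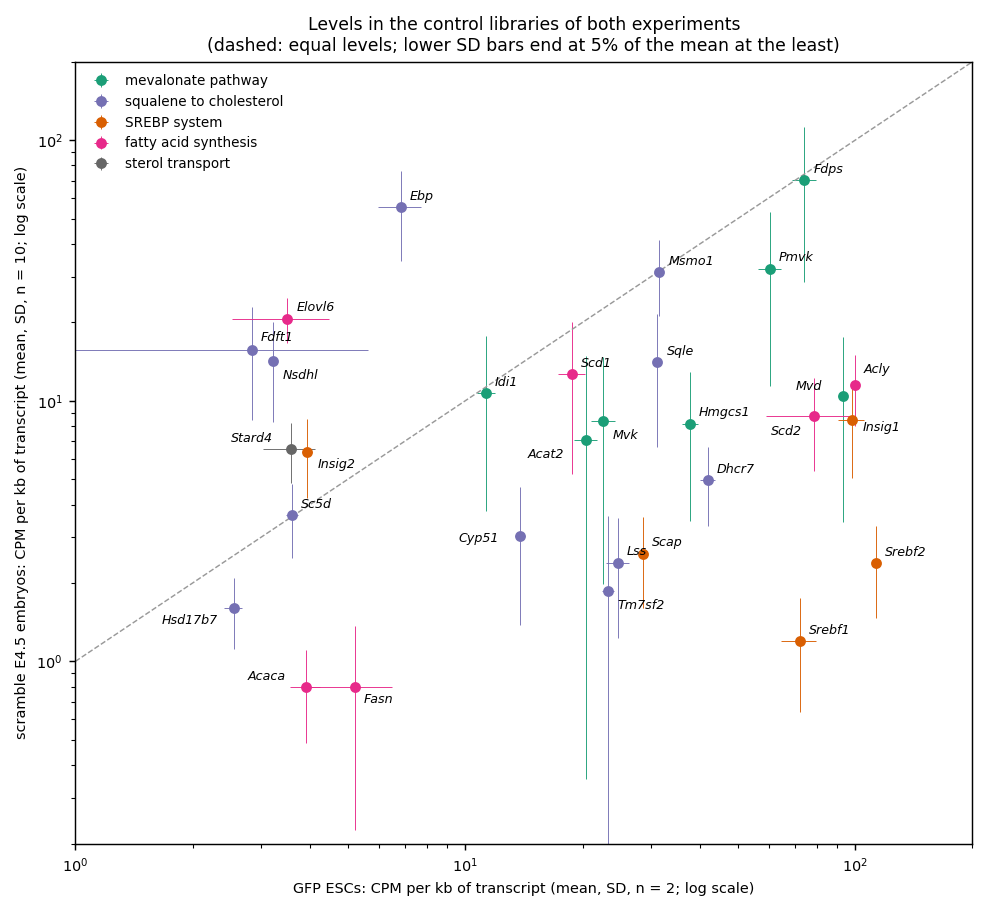
Level of each of the 30 genes in scramble E4.5 embryos (vertical axis, mean and SD of 10 embryos) against GFP ESCs (horizontal axis, mean and SD of 2 libraries), in CPM per kb of transcript on log scales and coloured by role. Srebf1 (1.20 in embryos, 72.1 in ESCs) and Srebf2 (2.38 and 113) lie farthest below the dashed line of equal levels, and Ebp (55.3 and 6.84) and Elovl6 (20.7 and 3.50) lie far above it.

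The overexpression experiment asks what raising Klf5 does to the transcripts of stem cells. No gene of the 30 passed an adjusted p of 0.05 in edgeR's quasi-likelihood test (0 of 30), where 2.78% of all 15968 genes tested did (1.67% higher and 1.11% lower). An unadjusted p below 0.05 was reached by 9 of the 30 in edgeR, where 23.2% of all genes did, and DESeq2 called 3 of the 30, Elovl6, Fasn and Acat2, where it called 10.5% of the 13721 genes it tested. The median log2 fold change of Klf5 over GFP was 0.07 for the 30 genes and −0.00 for all genes. The CPM of the groups did not overlap for 17 of the 30, and for 56.4% of all genes. All 6 fatty acid genes had a positive fold change (median 0.31), 4 of the 5 SREBP system genes a negative one (median −0.20), and 9 of the 18 sterol enzymes a negative one (median −0.01). The feeder, primitive endoderm and trophectoderm markers described above moved with the same groups, and their part in these values was not tested.

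Among mevalonate enzymes in ESCs, Acat2, encoding the thiolase that joins 2 acetyl-CoA units in the first step, had 73.1 and 59.3 CPM in Klf5 ESCs, against 43.6 and 48.0 CPM in GFP ESCs. Both Klf5 libraries were above both GFP libraries (log2 fold change 0.53 ± 0.14 SE, edgeR adjusted p = 0.0889). DESeq2 gave an adjusted p of 0.0220. Of the 31-base words in Acat2 transcripts 43.7% also occur in Acat3, so that counts of these neighbouring genes could have been split and the level of Acat2 is uncertain. Mvk, encoding mevalonate kinase, had 51.2 and 48.7 CPM in Klf5 ESCs, against 35.6 and 39.5 CPM in GFP ESCs (0.41, edgeR adjusted p = 0.115). Hmgcs1, encoding the synthase that forms HMG-CoA, lay on the other side, with 106 and 118 CPM in Klf5 ESCs and 126 and 135 CPM in GFP ESCs (−0.23, edgeR adjusted p = 0.281). Pmvk, encoding phosphomevalonate kinase, stood at a log2 fold change of 0.34, and Mvd, Idi1 and Fdps, which carry mevalonate on to farnesyl diphosphate, between −0.14 and 0.02. Of the 31-base words of Idi1 27.1% occur in other genes, 18.4% in the predicted gene Gm13502, and its level is uncertain too.

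Of the 11 enzymes from squalene formation to cholesterol, Ebp showed the widest gap between the ESC groups that did not overlap, with 21.6 and 15.1 CPM in Klf5 ESCs and 13.0 and 10.9 CPM in GFP ESCs (0.62 ± 0.21 SE, edgeR adjusted p = 0.141). Fdft1, encoding squalene synthase, was erratic, with 10.8 and 0 CPM in Klf5 ESCs and 3.18 and 17.8 CPM in GFP ESCs. The 0 allows up to 0.0799 CPM. The libraries of a group differed by more than the groups did, and the fitted value of −0.98 had an SE of 2.17. Of Fdft1's 31-base words 31.9% occur in transcripts of other genes, 17.6% in those of its neighbour Ctsb. The other 9 lay between −0.15 (Msmo1) and 0.25 (Nsdhl), with Sqle, encoding the squalene epoxidase, at 92.8 and 82.2 CPM in Klf5 ESCs and 86.9 and 84.8 CPM in GFP ESCs.

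In the SREBP system, Srebf1 had 224 and 267 CPM in Klf5 ESCs and 333 and 287 CPM in GFP ESCs. Both Klf5 libraries were below both GFP libraries (−0.34 ± 0.14 SE, edgeR adjusted p = 0.197). Srebf2 had 651 and 625 CPM in Klf5 ESCs and 567 and 584 CPM in GFP ESCs (0.15, edgeR adjusted p = 0.470). Scap, Insig1 and Insig2 lay between −0.29 and −0.14, and none of the 5 passed with edgeR or DESeq2.

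Fatty acid synthesis held the gene of the 30 with the largest fold change in ESCs. Elovl6 had 52.5 and 35.5 CPM in Klf5 ESCs, against 16.7 and 24.9 CPM in GFP ESCs. Both Klf5 libraries were above both GFP libraries (log2 fold change 1.07 ± 0.26 SE, edgeR adjusted p = 0.0800), and DESeq2 gave an adjusted p of 0.00126. Fasn had 90.7 and 77.0 CPM in Klf5 ESCs, against 43.2 and 61.5 CPM in GFP ESCs (0.68 ± 0.19 SE, edgeR adjusted p = 0.0962, DESeq2 adjusted p = 0.0135). Acly, encoding ATP citrate lyase, had 624 and 505 CPM in Klf5 ESCs, against 439 and 440 CPM in GFP ESCs (0.36 ± 0.14 SE, edgeR adjusted p = 0.175). Its groups did not overlap either, while those of Acaca, encoding the acetyl-CoA carboxylase that commits carbon to fatty acids, and of the desaturase genes Scd1 and Scd2 did (0.22, 0.17 and 0.26). Stard4, encoding a cytosolic cholesterol carrier, had 29.1 and 24.1 CPM in Klf5 ESCs and 16.2 and 20.1 CPM in GFP ESCs (0.55 ± 0.17 SE, edgeR adjusted p = 0.121). With 2 libraries in a group 1 library decided such calls. Without Klf5 ESC library 2, Elovl6 (1.33, edgeR adjusted p = 0.0384), Acat2 (0.68, 0.0353) and Ebp (0.86, 0.0405) passed, and with any other library left out none of the 30 did.

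**Figure D2:**
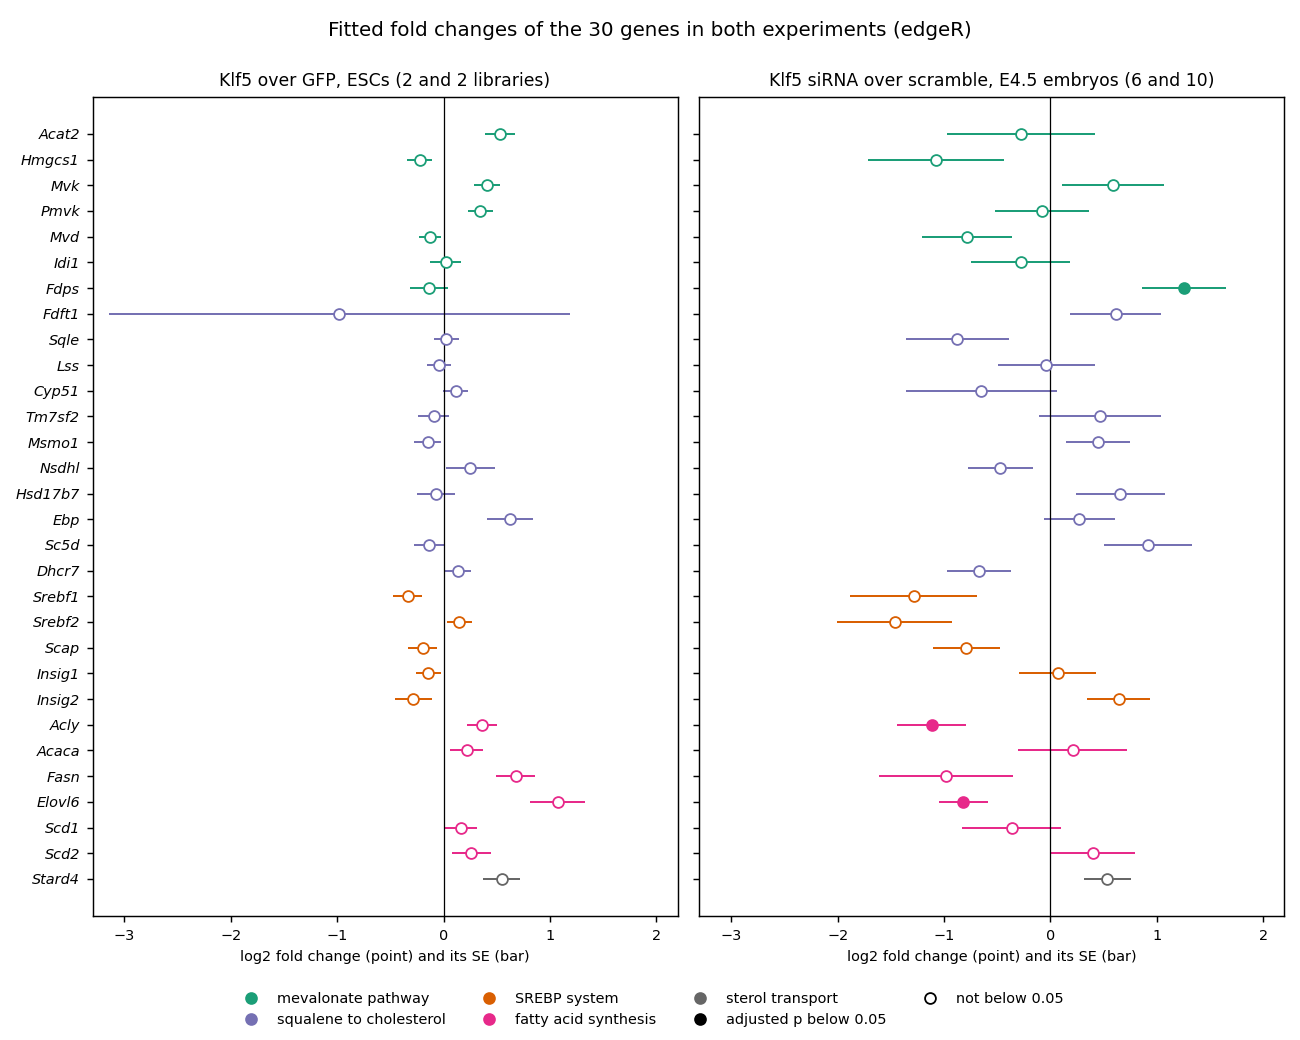
Log2 fold change (point) and SE (bar) of each of the 30 genes from edgeR, for Klf5 over GFP in ESCs on the left and Klf5 siRNA over scramble siRNA in embryos on the right, with roles as colours and filled points for an adjusted p below 0.05. No point is filled in ESCs, and in embryos Fdps (1.26), Acly (−1.12) and Elovl6 (−0.82) are.

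The siRNA experiment asks what lowering Klf5 does to the transcripts of the embryo. In edgeR 3 of the 30 genes passed, Fdps higher and Acly and Elovl6 lower after Klf5 siRNA, where 19.8% of all 12385 genes tested did (12.0% higher and 7.74% lower). An unadjusted p below 0.05 was reached by 10 of the 30 and by 33.2% of all genes. DESeq2 called 6 of the 30, these 3 with Srebf2, Scap and Stard4, where it called 23.2% of the 14848 genes it tested. The median log2 fold change of Klf5 siRNA over scramble was −0.18 for the 30 genes and −0.01 for all genes, with −0.79 for the SREBP system, −0.59 for fatty acid synthesis, −0.28 for the mevalonate pathway and 0.27 for the steps from squalene to cholesterol. No gene of the 30 had groups without overlap (0 of 30), where 4.81% of all genes did. The trophectoderm and primitive endoderm markers, the mitochondrial share and the trend with length described above moved with the same groups. The part of these markers in the results was not tested.

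Acly fell after Klf5 siRNA. The lowest, median and highest values were 7.67, 23.9 and 37.9 CPM in Klf5 siRNA embryos, against 25.8, 54.4 and 70.7 CPM in scramble embryos. All 6 Klf5 siRNA embryos were below the scramble median and 3 were below every scramble embryo (means 23.3 ± 11.3 and 50.4 ± 15.3 CPM, SD, n = 6 and 10; log2 fold change −1.12 ± 0.33 SE, edgeR adjusted p = 0.0208). Elovl6 fell as well, with 46.2, 68.5 and 112 CPM in Klf5 siRNA embryos, against 70.0, 131 and 149 CPM in scramble embryos. Again all 6 were below the scramble median and 3 below every scramble embryo (means 69.7 ± 23.9 and 123 ± 24.2 CPM; −0.82 ± 0.23 SE, edgeR adjusted p = 0.0166). Both calls held with any 1 embryo left out, between −1.34 and −0.97 for Acly and between −1.02 and −0.72 for Elovl6.

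The other fatty acid genes did not pass and spread widely. Fasn had a lowest, median and highest value of 0.336, 3.43 and 8.68 CPM in Klf5 siRNA embryos, against 1.69, 6.74 and 19.9 CPM in scramble embryos (−0.98 ± 0.63 SE, edgeR adjusted p = 0.290). Acaca ran from 0.504 to 23.6 CPM in Klf5 siRNA embryos, on both sides of the 3.20 to 13.2 CPM of scramble embryos (0.21, edgeR adjusted p = 0.813). Of its 31-base words 33.5% occur in other genes, 31.7% in the predicted gene Gm5182, so its level is uncertain. Scd1 stood at −0.36 and Scd2 at 0.40. Klf5 siRNA embryo 4 was the lowest of its group in Acly, Acaca and Fasn and embryo 6 in Scd1 and Scd2.

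In the mevalonate pathway Fdps, encoding farnesyl diphosphate synthase, rose. Its lowest, median and highest values were 96.7, 208 and 489 CPM in Klf5 siRNA embryos, against 32.3, 79.3 and 198 CPM in scramble embryos. All 6 Klf5 siRNA embryos were above the scramble median and 3 above every scramble embryo (means 232 ± 138 and 97.1 ± 57.7 CPM; 1.26 ± 0.39 SE, edgeR adjusted p = 0.0292). Embryo 3 held the 489 CPM, and without it the log2 fold change was 0.87 with an edgeR adjusted p of 0.125. Of the 31-base words of Fdps 27.9% occur in other genes, 24.6% in the predicted gene Gm43738, so its level is uncertain.

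These 3 calls depended on how library make-up was handled. With an offset that removes the length trend of each library, Fdps stood at 0.93 (edgeR adjusted p = 0.0610), Acly at −0.80 (0.0618) and Elovl6 at −0.40 (0.192). With the mitochondrial percent as a covariate they stood at 0.56 (0.403), −0.53 (0.367) and −0.73 (0.116). Without Klf5 siRNA embryos 2 and 4, a pair chosen from earlier results on these libraries, they stood at 1.36 (0.0530), −0.97 (0.0558) and −0.60 (0.108). Each kept its direction and none passed under these 3 settings.

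Hmgcs1 was lower after Klf5 siRNA in all 6 embryos against the scramble median, without passing. Its lowest, median and highest values were 7.05, 14.0 and 17.3 CPM in Klf5 siRNA embryos and 0, 25.6 and 55.3 CPM in scramble embryos (−1.08 ± 0.64 SE, edgeR adjusted p = 0.248). The 0 came from scramble embryo 8, where a count of 0 allows up to 0.147 CPM, for counting error only. Every other scramble embryo was at 19.9 CPM or more, above all 6 Klf5 siRNA embryos, and without embryo 8 the gene passed (−1.23, edgeR adjusted p = 0.0116). Hmgcs1 passed in 3 of the 26 embryo fits. Of its 31-base words 13.1% occur in other genes, 10.9% in Gm48342. Mvd, encoding the decarboxylase of the pathway, stood at −0.78 (0.203) and Mvk at 0.59 (0.414), while Acat2, Pmvk and Idi1, whose sign turned when 1 embryo was left out, lay between −0.28 and −0.08.

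None of the 11 enzymes from squalene to cholesterol passed in embryos with edgeR or DESeq2, 2 had an unadjusted p below 0.05 in edgeR, and their fold changes ran both ways. Sqle had a lowest, median and highest value of 3.23, 15.1 and 60.7 CPM in Klf5 siRNA embryos, against 17.9, 31.5 and 80.3 CPM in scramble embryos (−0.88 ± 0.48 SE, edgeR adjusted p = 0.213). Only Klf5 siRNA embryo 3 was above the scramble median, and without it Sqle passed (−1.61, edgeR adjusted p = 0.0194). This was the only 1 of the 26 embryo fits in which Sqle passed. Dhcr7, encoding the reductase of the last step, had 5.68, 8.33 and 12.2 CPM in Klf5 siRNA embryos and 6.93, 14.0 and 24.4 CPM in scramble embryos, with all 6 below the scramble median (−0.67 ± 0.30 SE, edgeR adjusted p = 0.121). Sc5d, encoding the sterol desaturase just before it, split the Klf5 siRNA embryos. Embryos 1, 2 and 3 had 63.4, 33.2 and 70.7 CPM and embryos 4, 5 and 6 had 9.46, 10.2 and 10.7 CPM, against 10.7 to 25.4 CPM in scramble embryos. The first 3 were above every scramble embryo, and the others at the low end of that range or below it (0.92 ± 0.41 SE, edgeR adjusted p = 0.125). Sc5d stood at 0.50 (0.428) without embryo 3 and passed in 1 of the 26 embryo fits, that with the length offset (1.24, 0.0462).

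Cyp51, encoding the lanosterol demethylase, had a lowest, median and highest value of 0, 3.43 and 26.3 CPM in Klf5 siRNA embryos and 4.58, 10.9 and 27.3 CPM in scramble embryos (−0.65 ± 0.71 SE, edgeR adjusted p = 0.557). In Klf5 siRNA embryos 4 of 6 were below every scramble embryo, while embryos 2 and 3 lay within the scramble range. The 0, in embryo 4, allows up to 0.168 CPM. The fitted value was −1.72 without Klf5 siRNA embryo 3, −0.38 without Klf5 siRNA embryo 4 and −0.43 without scramble embryo 3. Hsd17b7 (0.66), Fdft1 (0.61) and Msmo1 (0.45), which act at squalene formation and at the removal of the methyl groups of lanosterol, also leaned on embryo 3, since without it they stood at 0.06, 0.01 and 0.05. Nsdhl, encoding a dehydrogenase of the demethylation steps, stood at −0.47, Tm7sf2, encoding a sterol reductase, at 0.47, Ebp at 0.27 and Lss, encoding lanosterol synthase, at −0.04, with edgeR adjusted p-values from 0.293 to 0.968.

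The SREBP system had the lowest median fold change of the roles, and none of its 5 genes passed in edgeR, while 4 of them had an unadjusted p below 0.05. Srebf2 had a lowest, median and highest value of 0.434, 2.56 and 14.5 CPM in Klf5 siRNA embryos, against 4.65, 13.2 and 18.8 CPM in scramble embryos. Here 5 of 6 Klf5 siRNA embryos were below every scramble embryo and embryo 3 was above the scramble median (−1.46 ± 0.54 SE, edgeR adjusted p = 0.0623). DESeq2 called the gene (adjusted p = 0.0266), and so did edgeR without Klf5 siRNA embryo 3 (−2.43, adjusted p = 0.00256). These were the only 2 of the 26 embryo fits in which Srebf2 passed. Srebf1 had 0.0560, 1.85 and 5.23 CPM in Klf5 siRNA embryos, against 2.47, 4.15 and 8.48 CPM in scramble embryos. The same 5 embryos were below every scramble embryo (−1.29 ± 0.60 SE, edgeR adjusted p = 0.139). Srebf1 passed in 1 of the 26 embryo fits, that without embryo 3 (−1.84, edgeR adjusted p = 0.0481). The levels of both genes are low, with as little as 1 count for Srebf1 and 7 counts for Srebf2 in a library.

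Scap was the tightest of the 30 in Klf5 siRNA embryos, at 5.45, 6.45 and 7.00 CPM, against 5.80, 10.6 and 18.6 CPM in scramble embryos. All 6 were below the scramble median, and their coefficient of variation was 8.04%, against 38.2% in scramble embryos (−0.79 ± 0.31 SE, edgeR adjusted p = 0.0803, DESeq2 adjusted p = 0.0227). Scap passed in 2 of the 26 embryo fits. Insig2 had 10.2, 27.9 and 41.9 CPM in Klf5 siRNA embryos and 10.5, 16.6 and 30.4 CPM in scramble embryos (0.64 ± 0.30 SE, edgeR adjusted p = 0.140), while Insig1 stood at 0.07 (0.917). Stard4 was above the scramble median in all 6, with 37.5, 49.8 and 57.4 CPM in Klf5 siRNA embryos and 22.2, 32.3 and 53.5 CPM in scramble embryos (0.54 ± 0.22 SE, edgeR adjusted p = 0.0886). Stard4 passed in 4 of the 26 embryo fits. These were DESeq2 (0.0349), the length offset (0.00476), the mitochondrial covariate (0.0344) and edgeR without scramble embryo 7 (0.0444).

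**Figure D3:**
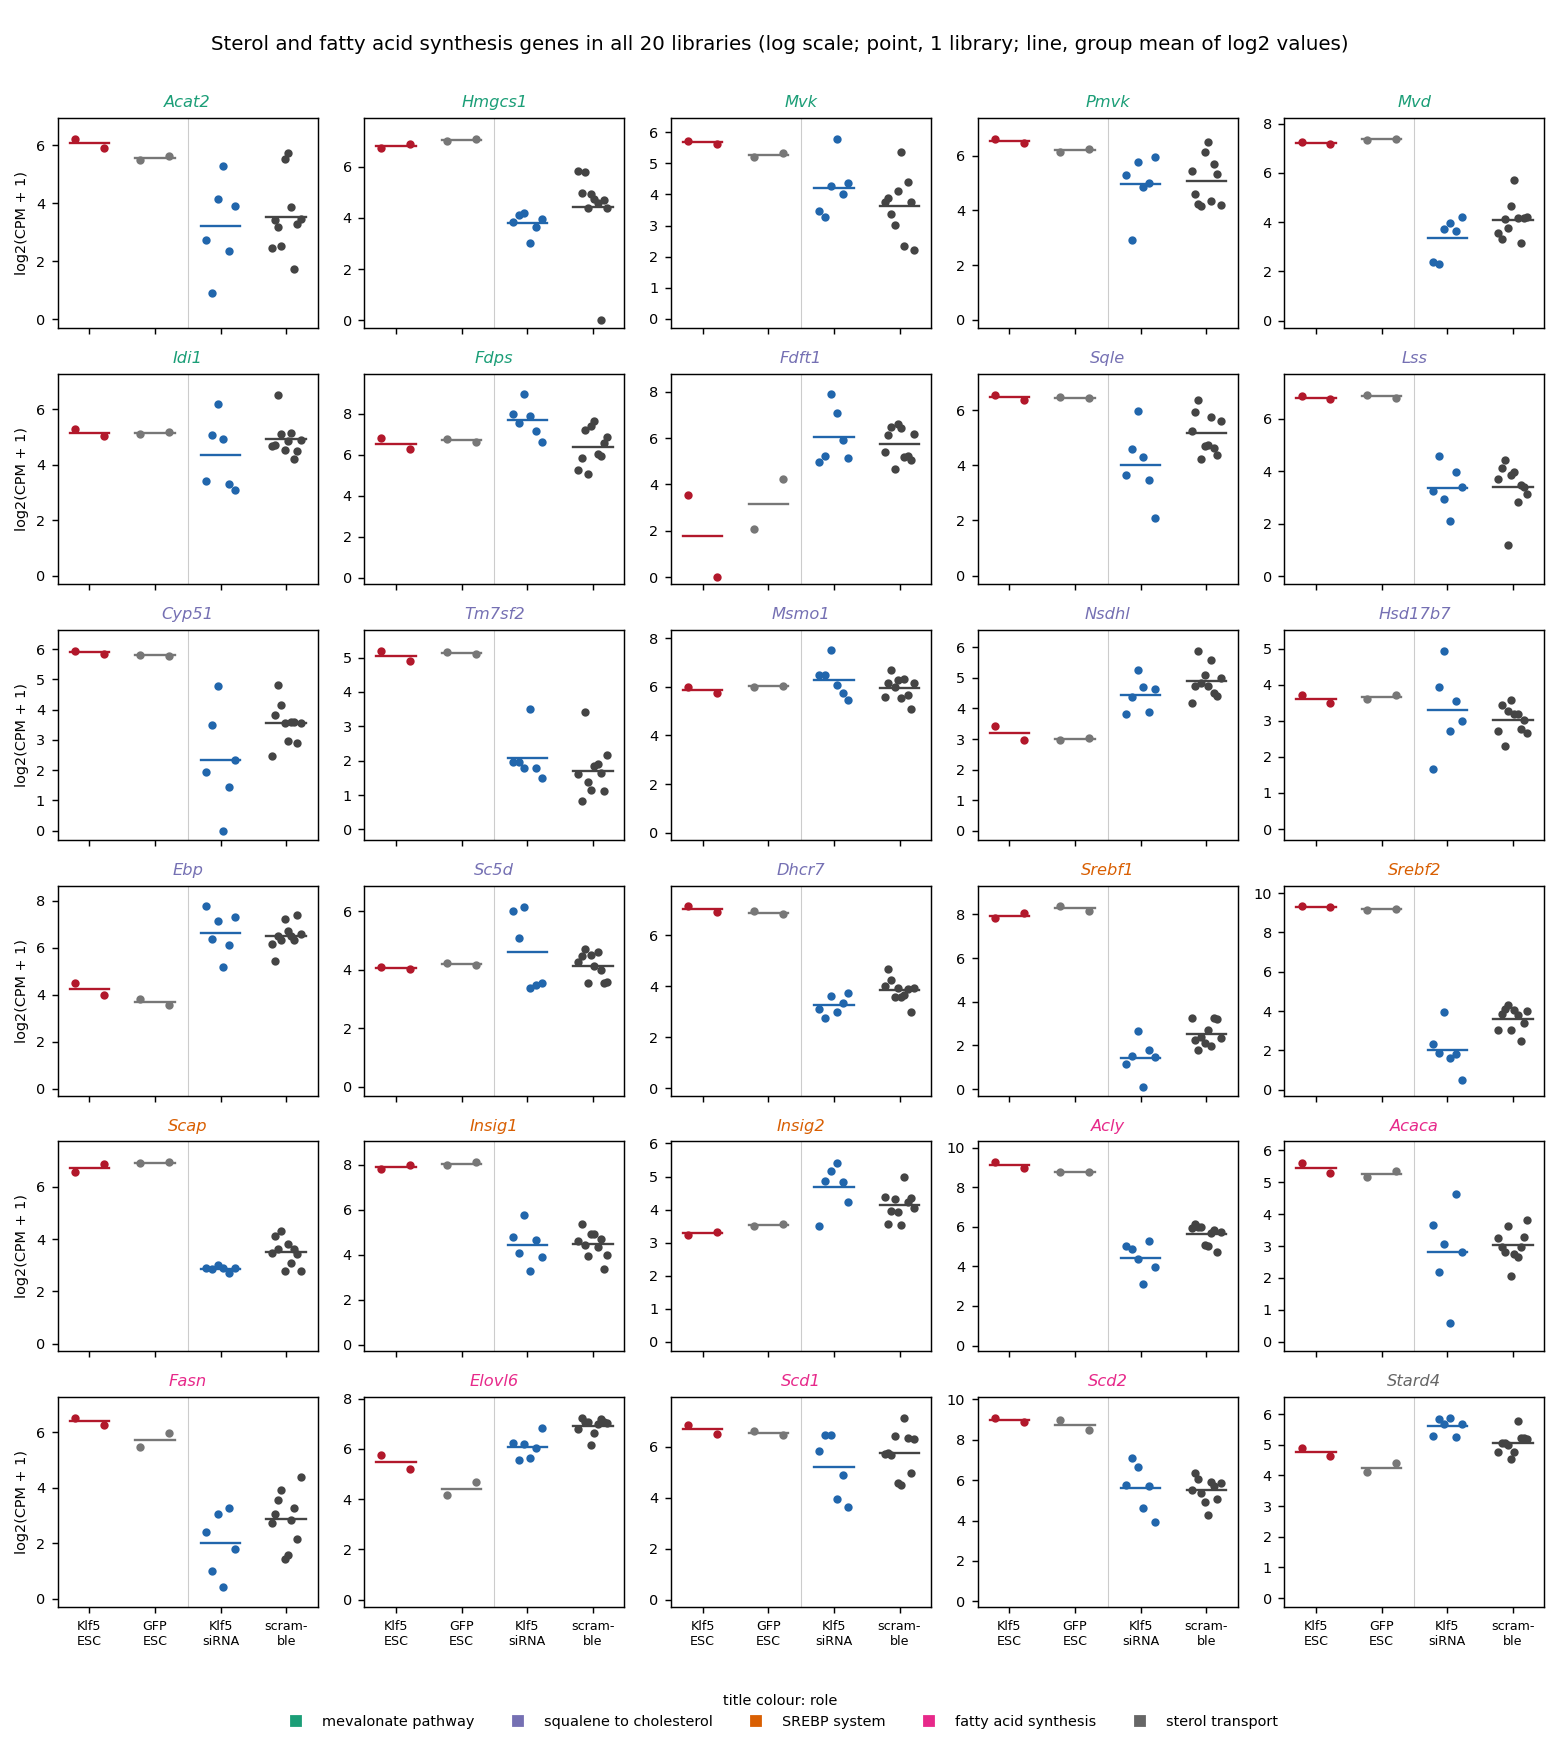
Level of each of the 30 genes in every library, as log2(CPM + 1), with Klf5 ESCs, GFP ESCs, Klf5 siRNA embryos and scramble embryos from left to right (points, libraries; lines, means of the log2 values; title colours, roles). In Acly and Elovl6 all 6 Klf5 siRNA embryos are below the scramble median, and in Fdps all 6 are above it. In each of these 3 genes the groups overlap, and 3 of the 6 lie outside the scramble range. In Sc5d the Klf5 siRNA embryos form a high and a low trio.

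The genes also varied between embryos of 1 group. Klf5 siRNA embryo 3 was the highest of its group in 10 of the 18 sterol enzymes and the lowest in 0. The mean log2 level of these 18 enzymes, relative to the scramble mean, was 0.90 in that embryo and between −0.47 and −0.27 in the other 5. Among scramble embryos number 3 was highest in 8 of the 18 and number 6 in 5, and the same measure ran from −0.68 to 0.63. For the 6 fatty acid genes it was −2.35 in Klf5 siRNA embryo 4 and −1.19 in embryo 6, and between −0.54 and 0.06 in the other 4. In scramble embryos 5 and 6 it was −1.01 and −0.89, and between −0.41 and 0.62 in the other 8.

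As a description over the 10 scramble embryos, which share no library but differ in depth and mitochondrial share, the median Spearman correlation was 0.20 over the 153 pairs of sterol enzymes, 0.52 over the 15 pairs of fatty acid genes and 0.00606 over all pairs of genes tested. The 108 pairs of a sterol enzyme with a fatty acid gene had a median of −0.23. Scramble embryos 5 and 6 were above the scramble mean in 6 of the 7 mevalonate genes, all but Idi1 (mean log2 difference over the 7 of 0.83 and 1.31), and below it in all 6 fatty acid genes. Without them the medians were 0.17 for sterol enzymes, 0.0952 for fatty acid genes and 0.0119 between both. The median SD of log2 CPM between scramble embryos was 0.64 for the 30 genes and 0.74 for all genes tested. This order turned without scramble embryos 5 and 6, with 0.64 for the 30 genes and 0.61 for all genes. Between Klf5 siRNA embryos the values were 0.95 and 0.93.

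**Figure D4:**
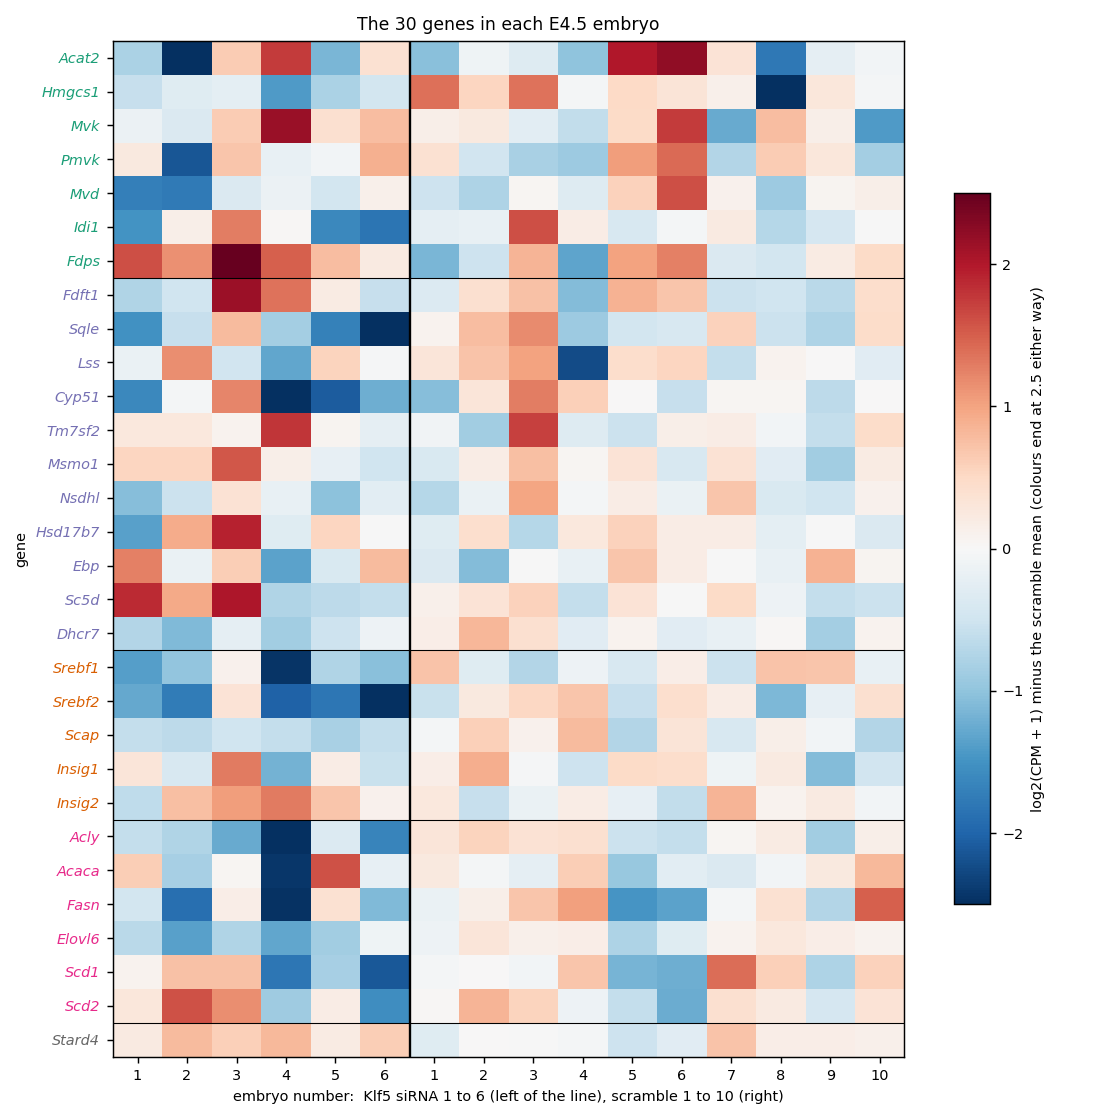
Log2(CPM + 1) of each of the 30 genes in each embryo minus the mean of the scramble embryos, with Klf5 siRNA embryos 1 to 6 left of the line and scramble embryos 1 to 10 right of it (red, above; blue, below; colours end at 2.5 either way). Klf5 siRNA embryo 3 is red over most sterol enzymes and embryo 4 blue over most fatty acid genes, and scramble embryos 5 and 6 are red in Acat2 and Pmvk and blue in most fatty acid rows.

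Set side by side, the signs of both experiments were opposite for 20 of the 30 genes (66.7%), and for 53.6% of the genes tested in both. Of these 20, 12 were higher in Klf5 ESCs and lower in Klf5 siRNA embryos, and 8 the reverse. The experiments share no control libraries. Elovl6 stood at 1.07 in Klf5 ESCs and at −0.82 in Klf5 siRNA embryos, Acly at 0.36 and −1.12, and Fasn at 0.68 and −0.98. Fdps was among the 8 of the reverse direction, at −0.14 in Klf5 ESCs and 1.26 in Klf5 siRNA embryos. Of these values those of Acly, Elovl6 and Fdps in embryos passed in edgeR. Stard4 was positive in both, at 0.55 and 0.54, and Srebf1 negative in both, at −0.34 and −1.29. None of these 4 values passed in the main edgeR fit.

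The promoters of Acly and Elovl6 are shown because these genes had opposite signs in the experiments and passed in 1 of them. Fdps met the same rule but matched no RefSeq window, so its promoter is not shown. The promoter of Hmgcs1 is shown because it alone held the sterol regulatory element searched. Each line gives the 250 bases before the start of transcription, 5′ to 3′ on the gene's strand, from RefSeq on GRCm38.p6. Capitals mark the letters CCNCNCCC on either strand, a CACCC-type pattern of the kind that Krüppel-like factors bind, in Acly (chr11:100528001-100528250, minus strand) and Elovl6 (chr3:129532136-129532385, plus strand), and the letters TCACNCCAC in Hmgcs1 (chr13:119690101-119690350, plus strand).
Acly: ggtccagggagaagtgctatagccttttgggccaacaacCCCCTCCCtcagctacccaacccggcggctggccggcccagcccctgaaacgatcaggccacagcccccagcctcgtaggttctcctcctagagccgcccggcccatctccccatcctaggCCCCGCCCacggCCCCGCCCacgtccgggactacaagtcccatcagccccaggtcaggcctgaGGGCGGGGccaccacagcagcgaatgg
Elovl6: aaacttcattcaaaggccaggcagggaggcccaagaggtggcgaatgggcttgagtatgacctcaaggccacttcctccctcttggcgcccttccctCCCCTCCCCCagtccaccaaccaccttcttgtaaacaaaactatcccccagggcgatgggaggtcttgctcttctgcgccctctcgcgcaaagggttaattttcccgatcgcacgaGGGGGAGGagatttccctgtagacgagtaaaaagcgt
Hmgcs1: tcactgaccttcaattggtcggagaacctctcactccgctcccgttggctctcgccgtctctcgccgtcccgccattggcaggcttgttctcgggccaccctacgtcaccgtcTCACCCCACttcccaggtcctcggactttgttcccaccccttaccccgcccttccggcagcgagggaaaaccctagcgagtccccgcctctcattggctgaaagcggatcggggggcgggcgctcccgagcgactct
Acly held 4 matches, at −211 to −204, −90 to −83, −78 to −71 and −27 to −20 from the start site, and 3 of them share bases with a GC box (GGGCGG). Elovl6 held 3, of which those at −153 to −146 and −151 to −144 overlap each other. In Hmgcs1 the sterol element lay at −137 to −129.

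The search covered the RefSeq windows from 250 bases before to 50 bases after the start, both strands, and 24 of the 30 genes matched at least 1 window of the table. Fdps, Fdft1, Sqle, Scd1, Scd2 and Stard4 did not match. The CACCC-type letters were found in 21 of the 32 windows of these genes (19 of 24 genes) and in 49.5% of all 32851 windows. The CCAAT box (CCAAT) was found in 21 of the 32 (20 of 24 genes) and in 37.4% of all windows. The GC box was found in 24 of the 32 (20 of 24 genes) and in 35.7% of all. The sterol element TCACNCCAC was found in 1 of the 32 (1 of 24 genes) and in 1.24% of all. Some genes have several windows, GC box and CACCC-type letters can overlap, and a match is a description of these letters only, as no match says only that they are not in the window.

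Genes around the pathways were taken from lists apart from the 30. Of 16 further sterol genes 2 rose and 2 fell after Klf5 siRNA, where 12.0% of all genes tested rose and 7.74% fell. Tmem97, encoding a sterol-responsive membrane protein, averaged 337 ± 111 CPM in Klf5 siRNA embryos and 142 ± 47.6 CPM in scramble embryos (1.24, edgeR adjusted p = 0.00170), and Ggps1, encoding geranylgeranyl diphosphate synthase, stood at 0.73 (0.0300). Erlin1 (−1.05, 0.0429) and, named after its value was seen, Erlin2 (−0.83, 0.0448), encoding proteins of the endoplasmic reticulum that bind cholesterol, fell. With 1 embryo left out Tmem97 passed every time, while single embryos ended the other 3 calls, at edgeR adjusted p-values up to 0.0830. Of the 26 fits, Ggps1 passed in 17 (up to 0.181), Erlin1 in 13 (up to 0.359) and Erlin2 in 11 (up to 0.293). The single embryos were scramble embryo 10 and Klf5 siRNA embryos 1, 2, 3 and 5 for Ggps1, scramble embryos 1, 2, 3, 4 and 9 and Klf5 siRNA embryos 3, 4, 5 and 6 for Erlin1, and scramble embryos 1, 2, 4, 5, 8 and 10 and Klf5 siRNA embryos 2, 3, 5 and 6 for Erlin2. None of these 16 passed in ESCs with edgeR, where Dhdds, encoding a subunit of the dolichol-forming prenyltransferase, had the smallest p (0.63, adjusted p = 0.0856, DESeq2 0.0384) and 2 had an unadjusted p below 0.05.

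Of 20 further fatty acid genes 4 rose and 1 fell in embryos, where 12.0% of all genes tested rose and 7.74% fell. Thrsp, encoding a protein linked to lipogenesis in mouse liver, had 2.58, 38.3, 7.91, 103, 3.77 and 3.79 CPM in Klf5 siRNA embryos 1 to 6, against 0 to 1.11 CPM in scramble embryos. Its groups did not overlap, and it passed in 26 of 26 fits, with fitted log2 values from 3.88 to 6.94 that depend on the prior count. Elovl1, encoding an elongase of very long chains, averaged 120 ± 54.1 CPM in Klf5 siRNA embryos and 37.8 ± 15.8 CPM in scramble embryos (1.66, edgeR adjusted p = 0.00107). Tecr, encoding the reductase that completes each elongation cycle, averaged 575 ± 196 CPM in Klf5 siRNA embryos and 243 ± 107 CPM in scramble embryos (1.24, 0.00602). Elovl1, Tecr and Tmem97 lost their calls in 1 fit each, that with the mitochondrial covariate (0.80, 0.47 and 0.80, edgeR adjusted p from 0.0534 to 0.268). Outside the naming rule, Slc25a1, encoding the mitochondrial citrate carrier, rose (1.13, 0.0268) and Elovl5, encoding an elongase of polyunsaturated chains, fell (−1.48, 0.0281). The call of Slc25a1 was lost without Klf5 siRNA embryo 2, 3 or 4 (edgeR adjusted p up to 0.0724), and that of Elovl5 without Klf5 siRNA embryo 2, 5 or 6 (up to 0.0684). Of the 26 fits Slc25a1 passed in 18 (edgeR adjusted p up to 0.282, under the replicate block) and Elovl5 in 19 (up to 0.101, with the mitochondrial covariate). No gene of this list passed in ESCs with edgeR, and Mlxipl, encoding a carbohydrate-responsive factor, had the smallest p (−0.74, adjusted p = 0.101, DESeq2 0.0385, and 0.0373 in edgeR without Klf5 ESC library 2) and 6 had an unadjusted p below 0.05.

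Among 12 genes of sterol uptake, transport and efflux tested in embryos 1 was called, against 19.8% of all genes tested. This was Vldlr, encoding a lipoprotein receptor, with 0 to 1.08 CPM in Klf5 siRNA embryos and 0.536 to 3.95 CPM in scramble embryos (−2.18, edgeR adjusted p = 0.0481). It passed in 5 of 26 fits. With 1 embryo left out it passed only without scramble embryo 3 or 8, with edgeR adjusted p-values up to 0.0825 in the other 14 such fits. In ESCs 1 of 14 was called, against 2.78% of all genes tested. This was Abcg1, encoding a cholesterol exporter, with 32.8 and 34.5 CPM in Klf5 ESCs and 49.5 and 55.1 CPM in GFP ESCs (−0.64 ± 0.13 SE, edgeR adjusted p = 0.0495). The groups did not overlap, but the call was lost without GFP library 1 (0.210), GFP library 2 (0.162) or Klf5 library 1 (0.0758).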

How the data were processed

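The deposited tables hold expected counts per Ensembl gene for 20 libraries, which the authors estimated with kallisto (0.46, build mm10 per the submitters' processing notes); no source used here says how transcripts were summed to genes. Counts were rounded to whole numbers. ESCs and embryos were fitted apart with edgeR 4.0.16 in R 4.3.3 (quasi-likelihood test, robust, TMM scaling, filterByExpr with a minimum count of 10, limma 3.58.1 loaded), and Benjamini-Hochberg adjustment ran over all genes tested at a threshold of 0.05. Of 30265 genes 15968 were tested in ESCs and 12385 in embryos. Fold changes are Klf5 over GFP and Klf5 siRNA over scramble siRNA. Alternatives were DESeq2 1.42.0, RLE scaling, no filter, each library left out, a replicate block, a mitochondrial covariate, an offset for length (lowess span 0.3) and Klf5 siRNA embryos 2 and 4 left out. The crossed ESC pairing and the fit without scramble embryos 5 and 6 were chosen after seeing the data. The labels do not say that replicate numbers pair samples (correlations of same-numbered deviations −0.11 in ESCs and −0.11 to 0.11 in embryos). With 2 libraries in an ESC group the deviations mirror each other, so the ESC value cannot show whether numbers pair. Lengths and shared 31-base words came from GENCODE M21, which matched 29910 of the 30265 identifiers. A length was that of the longest principal transcript, or the median transcript length where a gene had no principal transcript. Levels printed per group are CPM, and the floor for a count of 0 is 3 counts. The members and lists were chosen with earlier results of these data known. All 30 members are named, and from each other list those called with the smallest p (up to 3). The scripts were tested on simulated data.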

Additional observations from a re-analysis of the deposited data

Results flagged for a closer look

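The 60 embryo groups of values (30 genes in 2 groups) were searched for an outlying embryo on the scale of log2 CPM. In 5 of them 1 embryo lay farther from its neighbours than Dixon's 95% critical value allows, where chance flags 3. Each gap over range below is that of log2 CPM, while the levels printed are CPM. Among Klf5 siRNA embryos, number 2 had 6.55 CPM of Pmvk against 28.2 to 61.2 CPM in the other 5 (gap over range 0.651), and number 4 had 10.2 CPM of Tm7sf2 against 1.80 to 2.92 CPM (0.726). Among scramble embryos, number 8 had 0 CPM of Hmgcs1 against 19.9 to 55.3 CPM in the other 9 (0.838), number 3 had 90.5 CPM of Idi1 against 17.4 to 34.1 CPM (0.592), and number 4 had 1.27 CPM of Lss against 6.07 to 20.3 CPM (0.557).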

How the results depend on the processing

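In ESCs DESeq2 called 3 of the 30 genes and 1435 genes in all (10.5%), the edgeR fit with no filter called 870 in all, and leaving out 1 library gave 0 to 3 of the 30 and 1 to 998 in all, with a median log2 fold change of the 30 between −0.033 and 0.16. The replicate block, whose same-numbered libraries are not said to be paired, called 155 genes and none of the 30. Crossed pairing, added after seeing the data, called 4 of the 30 and 1475 genes. In embryos DESeq2 called 6 of the 30 and 3445 genes in all (23.2%; its median over all genes was 0.10). The fit without Klf5 siRNA embryos 2 and 4 called 0 of the 30, with 1903 genes in all, and leaving out 1 embryo gave 3 to 5. The replicate block over 12 embryos called 1 of the 30 and 902 genes, against 1423 genes in the same 12 without it. The median of the 30 was 0.029 with the length offset and −0.37 to 0.066 with 1 embryo left out. Of the 26 embryo fits Acly passed in 22, Elovl6 in 21 and Fdps in 20.

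Signs turned only for genes that did not pass. With no filter Insig1 was −0.017. Under the replicate block Insig1 was −0.36 and Acaca −0.14, and in the same 12 embryos without it Insig1 was −0.16. With the mitochondrial covariate Insig1 was −0.055, Mvk −0.24, Fdft1 −0.0046, Lss 0.012, Ebp −0.23 and Scd1 0.86. With the length offset Acat2 was 0.051, Lss 0.23 and Scd1 0.0079. Without Klf5 siRNA embryos 2 and 4 Pmvk was 0.27 and Tm7sf2 −0.19, and without scramble embryos 5 and 6 Acat2 was 0.73, Pmvk 0.31 and Acaca −0.00296. With 1 library left out, the ESC ranges that crossed 0 were those of Fdft1 (−11.46 to 0.75), Fdps (−0.42 to 0.11), Hsd17b7 (−0.19 to 0.045), Idi1 (−0.12 to 0.16), Lss (−0.11 to 0.026), Nsdhl (−0.022 to 0.49), Scd1 (−0.029 to 0.35), Sqle (−0.059 to 0.12) and Tm7sf2 (−0.25 to 0.057). In embryos they were those of Acaca (−0.39 to 0.44), Acat2 (−0.92 to 0.15), Idi1 (−0.94 to 0.037), Insig1 (−0.39 to 0.24), Lss (−0.40 to 0.11), Pmvk (−0.28 to 0.16) and Tm7sf2 (−0.15 to 0.94). The cause of these changes was not tested. Counts as low as 1 for Srebf1, 6 for Fasn, 7 for Srebf2 and 9 for Acaca in a Klf5 siRNA embryo limit precision. Where a library was left alone in its ESC group, it was assumed to vary like the other group.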

Other observations

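Genes of fatty acid oxidation, the mitochondrial breakdown of fatty acids, moved both ways in embryos, with 2 of 13 higher and 2 lower after Klf5 siRNA. Over all genes tested 12.0% were higher and 7.74% lower. Acaa2, encoding the thiolase of the last step, averaged 110.0 ± 56.8 CPM in Klf5 siRNA embryos and 324 ± 249 CPM in scramble embryos (SD, n = 6 and 10; log2 fold change −1.56, edgeR adjusted p = 0.0144). Cpt2, encoding the inner-membrane carnitine palmitoyltransferase, averaged 39.1 ± 19.3 CPM in Klf5 siRNA embryos and 15.5 ± 9.76 CPM in scramble embryos (1.33, edgeR adjusted p = 0.0184), and with 1 embryo left out this call was lost without Klf5 siRNA embryo 1 (0.0663). Hadhb, encoding a subunit of the trifunctional protein, stood at 1.00 (edgeR adjusted p = 0.0198), lost without Klf5 siRNA embryo 3 (0.0837). Acadm, the fourth gene called and named after its value was seen, encodes the medium-chain acyl-CoA dehydrogenase and stood at −1.17 (0.0211), lost without Klf5 siRNA embryo 4 (0.0568) or 5 (0.0565). No gene of this list passed in ESCs with edgeR, where Cpt2 had the smallest p (0.51, adjusted p = 0.136) and 3 had an unadjusted p below 0.05. Of the 26 embryo fits Acaa2 passed in 25, and Cpt2, Hadhb and Acadm in 22 each. The share of mitochondrial transcripts moved with the same embryo groups. With the mitochondrial percent as a covariate Cpt2 (0.86, edgeR adjusted p = 0.190) and Hadhb (0.71, 0.169) no longer passed, while Acaa2 (−2.50, 0.000254) and Acadm (−1.78, 0.00431) did. Cpt2 and Hadhb were also lost in the 12 embryos with the replicate block (1.47, 0.0991 and 0.82, 0.173) and without it (1.21, 0.110 and 0.83, 0.138), Acadm with the block (−1.50, 0.0664), and Acaa2 and Acadm without Klf5 siRNA embryos 2 and 4 (−1.28, 0.0872 and −0.83, 0.120).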
